A study of Mus musculus with 9 samples.

Results

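The IGF axis was described by 10 genes, which were taken by name from the 43346 genes of the deposited table. They encode the ligands Igf1 and Igf2, the receptors Igf1r and Igf2r, and the IGF binding proteins (IGFBPs) Igfbp2 to Igfbp7. RNA-Seq was carried out on lung fibroblasts of Col1a1-GFP transgenic male mice (FVB background) aged 18 months, which the labels also give as 72 weeks. In these mice a collagen I promoter drives GFP, both groups carry this reporter, and the sort was set to take cells in which it is active. The mice received 1 intratracheal dose of saline (aged sham, n = 4) or bleomycin (aged bleo, n = 5), and GFP+, CD45-, CD31-, and EpCAM- cells were sorted from the lungs on day 30. The labels do not say whether a library came from 1 mouse or from pooled mice, and p-values measure the spread between these libraries.

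IGF1 and IGF2 are small secreted growth factors that signal through the IGF1 receptor, a receptor tyrosine kinase that feeds the PI3K and AKT pathway. IGF2R does not signal in this way but carries IGF2 and proteins tagged with mannose 6-phosphate to the lysosome. IGFBPs are secreted proteins that hold most of the ligand outside the cell, prolong its life, and limit or direct its access to the receptor, until proteases such as PAPP-A cut them and release it. In the lung, mesenchymal cells and macrophages are known sources of IGF1, a growth factor long studied in fibrosis.

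Library totals were 49921946 to 68260600 counted reads, and the members had 386 to 186041 reads per library. Counting error was small beside the spread between libraries, except for Igfbp2 in aged sham. There, reads were 386 to 468 and the coefficient of variation was 5.04%, close to counting error alone. Levels are given as CPM, the count scaled to the TMM-normalized library total, and differences as log2 fold changes of aged bleo over aged sham with their SE. A gene was called when its FDR was under 0.10 and its fold change over 1.5 (edgeR, 16877 genes tested). Aged bleo 4 and 5 differed more from aged bleo 1 to 3 (chi-square per degree of freedom of 158 to 468) than those 3 libraries did from each other (34.1 to 76.3), and values without this pair are given where they matter. In the sort, the summed macrophage markers were 149 to 280.1 CPM in aged sham and 456 to 1586 CPM in aged bleo, with the highest sum in aged bleo 4. Of 11 macrophage markers, 5 were called higher and 0 lower, beside 23.8% of all genes tested that were called. Lyz2 made up most of the summed group means. Of the genes of the gate, Pecam1 (CD31) had a mean of 6.12 ± 0.509 and 4.34 ± 1.45 CPM in aged sham and aged bleo (SD, n = 4 and 5), Epcam of 0.592 ± 0.141 and 0.667 ± 0.316 CPM, and Ptprc (CD45) of 86.9 ± 59.0 and 64.95 ± 66.2 CPM. Fewer cells of a type and less RNA per cell cannot be told apart in such libraries.

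All 10 members were tested and 6 of them (60%) were called, 2 higher and 4 lower in aged bleo. Of all genes tested, 23.8% were called, 12.3% higher and 11.5% lower. Igf1 and Igfbp2 rose, and Igf2, Igfbp4, Igfbp5, and Igfbp6 fell. Igf1r, Igf2r, Igfbp3, and Igfbp7 were not called. The median log2 fold change was -0.08 over the members and 0.01 over all genes tested. Separate groups were seen for 3 members with higher and 4 with lower aged bleo values, where 32.2% of all genes tested had separate groups, 16.1% in each direction.

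**Figure D1:**
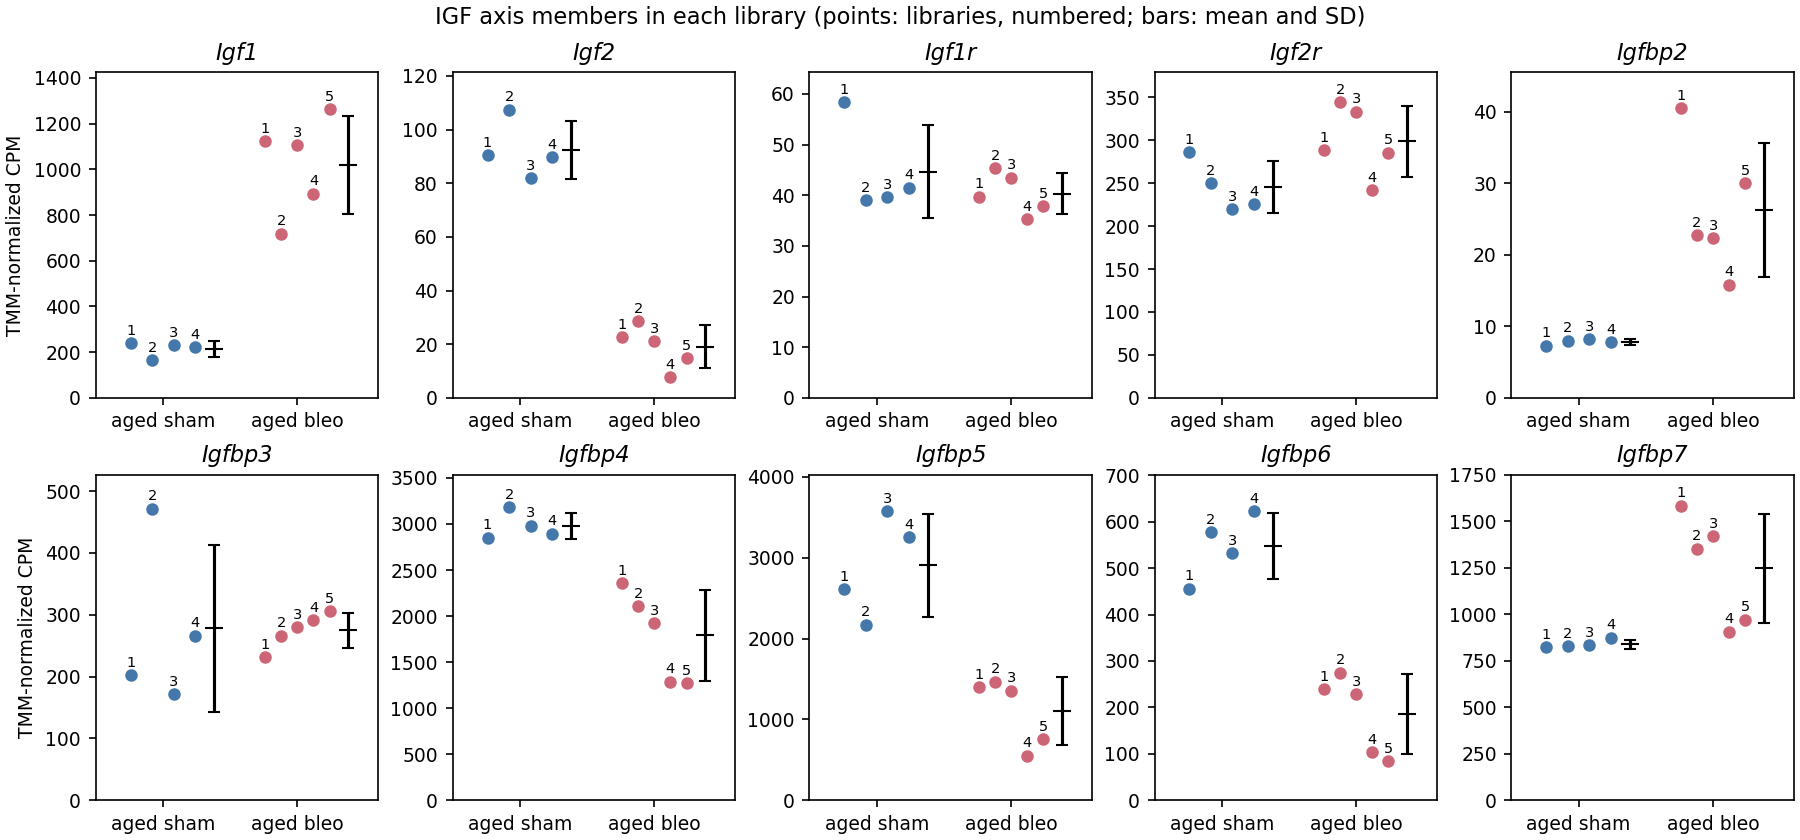
TMM-normalized CPM (linear axes from 0) of each member in the 4 aged sham and 5 aged bleo libraries, 1 numbered point per library, with bars for the group mean and SD. The groups are apart for Igf1, Igf2, Igfbp2, Igfbp4, Igfbp5, Igfbp6, and Igfbp7 and overlap for Igf1r, Igf2r, and Igfbp3.

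The promoters of the members are described next, although counts per gene do not show which promoter a transcript came from. RefSeq gives 14 promoter windows for the 10 members (GRCm38.p6), and 250 bases upstream of the start were searched on both strands for 4 motifs. TATAAA, the letters of a TATA box, was found in 2 windows, those of Igfbp4 and Igfbp6, and in 12.3% of 32536 windows of the same length in the genome. The Igfbp4 match starts at base 223 of 250 on the strand of the gene. The Igfbp6 match starts at base 103 on the opposite strand, farther from the start. TTTTCC, the core bound by NFAT factors, was found in 1 window each of Igf1 and Igf2 and in 20.4% of all windows. Neither TTCNNNGAA of STAT factors nor TGTTTAC of FoxO factors was found in the members' windows, and 7.04% and 3.17% of all windows hold them. A match describes letters and is not a site of binding. For each of 4 called members, the most upstream window without an annotated exon is printed 5′ to 3′ on the strand of the gene, with the TATA motif in capitals on whichever strand it was found. The windows of the called members Igf1 and Igfbp5 hold annotated exons and are not printed. The Igf2 window is on the minus strand at chr7:142666817-142667066 (50.8% GC), that of Igfbp2 on the plus strand at chr1:72824230-72824479 (67.2% GC), that of Igfbp4 on the plus strand at chr11:99040994-99041243 (69.2% GC), and that of Igfbp6 on the plus strand at chr15:102143936-102144185 (49.6% GC), and the median of all windows was 52.4% GC.
Igf2: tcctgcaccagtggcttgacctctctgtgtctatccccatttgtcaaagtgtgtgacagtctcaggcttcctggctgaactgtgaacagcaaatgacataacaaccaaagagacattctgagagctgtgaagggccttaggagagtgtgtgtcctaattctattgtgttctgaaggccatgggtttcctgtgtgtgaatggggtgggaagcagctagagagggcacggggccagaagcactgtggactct
Igfbp2: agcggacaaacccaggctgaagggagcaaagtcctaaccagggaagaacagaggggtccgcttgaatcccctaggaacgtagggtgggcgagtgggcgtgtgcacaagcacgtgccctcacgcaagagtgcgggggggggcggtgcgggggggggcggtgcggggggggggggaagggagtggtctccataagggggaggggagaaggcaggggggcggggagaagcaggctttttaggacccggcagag
Igfbp4: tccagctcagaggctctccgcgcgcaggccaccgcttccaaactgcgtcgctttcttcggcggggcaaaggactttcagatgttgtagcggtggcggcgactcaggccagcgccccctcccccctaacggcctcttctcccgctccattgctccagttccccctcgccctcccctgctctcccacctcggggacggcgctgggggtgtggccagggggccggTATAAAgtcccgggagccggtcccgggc
Igfbp6: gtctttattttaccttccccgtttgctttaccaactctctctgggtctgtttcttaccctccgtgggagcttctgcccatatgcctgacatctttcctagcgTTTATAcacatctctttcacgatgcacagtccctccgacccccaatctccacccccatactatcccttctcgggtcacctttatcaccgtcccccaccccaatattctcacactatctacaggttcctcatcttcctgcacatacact

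Among the ligands, Igf1 (ENSMUSG00000020053, chr10:87858265-87937042) was measured at 240.0, 165, 231, and 223 CPM in aged sham 1 to 4. In aged bleo 1 to 5 it was measured at 1123, 719, 1104, 894, and 1264 CPM. The lowest aged bleo library was above the highest aged sham library. The mean rose from 215 ± 33.6 CPM (SD, n = 4) to 1021 ± 214.5 CPM (SD, n = 5), a log2 fold change of 2.25 ± 0.19 (FDR = 7.8e-05) or 4.76-fold. Without aged bleo 4, the library with the most macrophage markers, the log2 fold change was 2.29. In the aged bleo libraries that remained, the summed macrophage markers (456 to 909 CPM) were still above every aged sham library. Lyz2, the largest part of the macrophage sum, rose from 117 ± 33.6 to 627 ± 303 CPM. The part of macrophage transcripts in the Igf1 difference was not tested. After the group means were taken out, the correlation of Igf1 with the other members over the 9 libraries lay between -0.471 and 0.42, and no p is given.

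Igf2 (ENSMUSG00000048583, chr7:142650766-142666816), the ligand best known from fetal growth, went the other way. Its CPM was 90.4, 107, 82.0, and 89.7 in aged sham 1 to 4 and 22.7, 28.6, 21.1, 7.69, and 14.9 in aged bleo 1 to 5. No aged bleo library came near the aged sham range, and aged bleo 4 and 5 were lowest. The mean fell from 92.4 ± 10.7 CPM (SD, n = 4) to 19.01 ± 8.00 CPM (SD, n = 5), which is 4.86-fold lower (log2 fold change of -2.28 ± 0.31, FDR = 0.00101). Without aged bleo 4 and 5, the log2 fold change was -1.94. H19, the imprinted noncoding RNA 72.6 kb from Igf2 on the same chromosome, rose from 2.64 ± 1.16 to 63.1 ± 37.8 CPM (log2 fold change of 4.57 ± 0.67, FDR = 0.00136). H19 and Igf2 are known to be expressed from opposite parental alleles, and the reads do not tell alleles apart.

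Per unit of length, on the deposited FPKM, Igf1 and Igf2 were close to each other in aged sham and far apart in aged bleo. The Igf1 level was 0.890 to 1.63 times the Igf2 level in the 4 aged sham libraries. In the 5 aged bleo libraries it was 14.5 to 67.2 times the Igf2 level. Aged sham 2 was the only library in which the FPKM of Igf2 exceeded that of Igf1, and aged bleo 4, with the least Igf2, had the highest ratio. On CPM, which is not divided by length, the ratio was 1.54 to 2.81 in aged sham and 25.1 to 116 in aged bleo. There, Igf2 exceeded Igf1 in no library. These ratios were not tested.

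**Figure D2:**
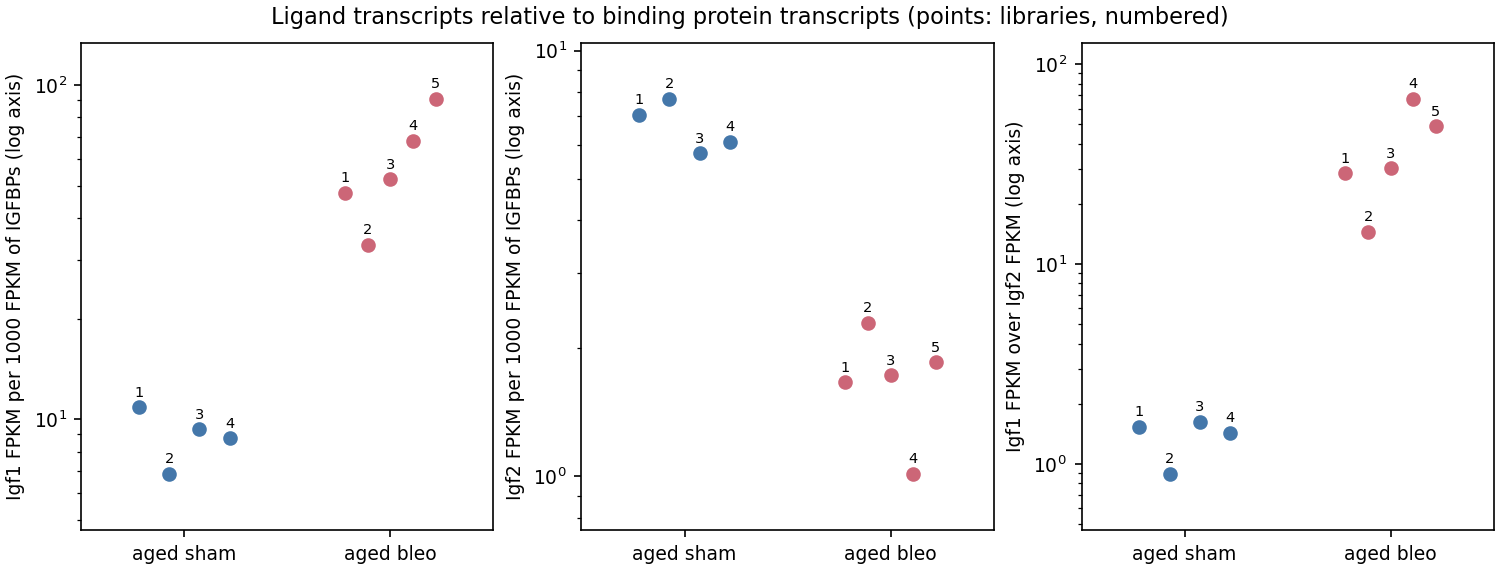
FPKM of Igf1 (left) and Igf2 (middle) per 1000 FPKM of the summed IGFBPs and of Igf1 over Igf2 (right) on log axes, 1 numbered point per library, for aged sham (n = 4) and aged bleo (n = 5). Igf1 over Igf2 was 0.890 to 1.63 in aged sham and 14.5 to 67.2 in aged bleo, and the groups are apart in every panel.

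The receptors moved little. Igf1r (ENSMUSG00000005533, chr7:67952859-68226780), the signaling receptor of both ligands, was measured at 58.4, 39.0, 39.6, and 41.5 CPM in aged sham 1 to 4 and at 39.7, 45.3, 43.5, 35.3, and 37.9 CPM in aged bleo 1 to 5. Aged sham 1 stood above all others, and the remaining libraries were mixed. The log2 fold change was -0.15 ± 0.13 (FDR = 0.419) with a 95% interval of -0.44 to 0.15, and without aged sham 1 it was 0.01 (FDR = 0.951).

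Igf2r (ENSMUSG00000023830, chr17:12682406-12769664), the clearance receptor of IGF2, was measured at 286, 250.2, 219.6, and 226 CPM in aged sham 1 to 4 and at 288, 344, 333, 242, and 285 CPM in aged bleo 1 to 5. The groups overlapped, with aged bleo 2 and 3 highest. The log2 fold change was 0.28 ± 0.12 (FDR = 0.105, 95% interval of 0.00 to 0.56), and no library left out took it past a fold change of 1.5. The edgeR FDR in those fits was 0.0414 to 0.227, so that the FDR threshold was met in some of them. Beside Igf1r the Igf2r level was nevertheless higher in every aged bleo library, with an FPKM ratio of 2.33 to 3.05 in aged sham and 3.26 to 3.65 in aged bleo. Beside Igf2, its ligand, the Igf2r level was 1.41 to 1.91 times as high in aged sham and 7.29 to 19.1 times as high in aged bleo. Airn, the noncoding RNA on the opposite strand of Igf2r, had a mean of 673 reads in aged sham and 532 reads in aged bleo, and reads of both strands cannot be told apart here.

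The binding proteins split. Igfbp2 rose, Igfbp4, Igfbp5, and Igfbp6 fell, Igfbp3 differed by less than its spread between libraries, and Igfbp7 was higher in every aged bleo library without passing the fold change threshold.

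Igfbp2 (ENSMUSG00000039323, chr1:72824503-72852474), which prefers IGF2 and can bind integrins, had the lowest FPKM of the members in aged sham. It was measured at 7.28, 8.00, 8.19, and 7.78 CPM in aged sham 1 to 4 and at 40.5, 22.7, 22.3, 15.8, and 30.0 CPM in aged bleo 1 to 5. Every aged bleo library was above every aged sham library, and aged bleo 4 was the least raised. The log2 fold change was 1.75 ± 0.24 (FDR = 0.00107), or 3.36-fold. Igfbp5 is its neighbor, 5.46 kb away on the opposite strand with the 3′ ends facing, and changed in the opposite direction.

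Igfbp5 (ENSMUSG00000026185, chr1:72857932-72874884), a matrix-associated IGFBP known to be made by fibroblasts, was measured at 2612, 2173, 3580.2, and 3254 CPM in aged sham 1 to 4. In aged bleo 1 to 5 it was measured at 1398, 1467, 1357, 550.1, and 757 CPM. All aged bleo libraries were below aged sham, and aged bleo 4 and 5 formed the low end. The mean fell from 2905 ± 632 CPM (SD, n = 4) to 1106 ± 421 CPM (SD, n = 5), 2.63-fold lower (log2 fold change of -1.39 ± 0.30, FDR = 0.00845). The log2 fold change was -1.05 without aged bleo 4 and 5.

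Igfbp6 (ENSMUSG00000023046, chr15:102144362-102149511), which binds IGF2 with a strong preference over IGF1, was measured at 456, 578, 533, and 623 CPM in aged sham 1 to 4. It was measured at 239, 275, 229, 104, and 84.4 CPM in aged bleo 1 to 5. Its groups were as clearly apart as those of Igfbp5, again with aged bleo 4 and 5 lowest. The mean fell from 547 ± 71.4 CPM (SD, n = 4) to 186 ± 86.1 CPM (SD, n = 5), 2.94-fold lower (log2 fold change of -1.56 ± 0.34, FDR = 0.00832), and without that pair the log2 fold change was -1.15.

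Igfbp4 (ENSMUSG00000017493, chr11:99041244-99054392) is the main substrate of PAPP-A. It was measured at 2852, 3180.2, 2983, and 2894 CPM in aged sham 1 to 4 and at 2358, 2106, 1921, 1286, and 1274 CPM in aged bleo 1 to 5. The aged sham libraries were close together and all aged bleo libraries were lower. The mean fell from 2977 ± 146 CPM (SD, n = 4) to 1789 ± 489.6 CPM (SD, n = 5), 1.66-fold lower (log2 fold change of -0.73 ± 0.20, FDR = 0.0202). This call rested on aged bleo 4 and 5, since without both the log2 fold change was -0.49 (FDR = 0.00765), which does not reach a fold change of 1.5.

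The decreases of these genes ran beside a shift in fibroblast markers. The summed level of 8 adventitial fibroblast markers was 14230 to 16790 CPM in aged sham and 2567 to 7916 CPM in aged bleo. Of these markers, 8 of 8 were lower with no overlap between the groups, beside 16.1% of all genes tested. By library, the sum was 6742, 7916, 5723, 2567, and 2870 CPM in aged bleo 1 to 5, so that aged bleo 4 and 5 were lowest here as they were for Igf2, Igfbp4, Igfbp5, and Igfbp6. They were also lowest in the summed alveolar fibroblast markers (1708, 2456, 2009, 859, and 1043 CPM) and endothelial markers (48.6, 71.35, 50.2, 32.5, and 26.7 CPM), so that this order was shared by several lists. The 8 alveolar markers were split, with 2 called higher and 3 lower and a median log2 fold change of 0.36. Most of the endothelial sum was the single gene Tek. Of 6 tested endothelial markers, 1 was called lower and 1 higher, and of all genes tested 23.8% were called. The part of these cell types in the differences was not tested.

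Igfbp3 (ENSMUSG00000020427, chr11:7206086-7213923), the main carrier of IGFs in blood, was measured at 202, 471, 172, and 266 CPM in aged sham 1 to 4 and at 231, 266, 280.3, 291, and 306 CPM in aged bleo 1 to 5. Aged sham 2 was above every other library, and the coefficient of variation was 48.5% in aged sham and 10.3% in aged bleo. The log2 fold change was -0.02 ± 0.26 (FDR = 0.972) with a 95% interval of -0.61 to 0.58. Without aged sham 2 it was 0.36 (FDR = 0.116).

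Igfbp7 (ENSMUSG00000036256, chr5:77349240-77408045), which has a low affinity for IGFs and binds the matrix, was measured at 823, 827, 834, and 875 CPM in aged sham 1 to 4. In aged bleo 1 to 5 it was measured at 1584, 1354, 1419, 907, and 970.3 CPM. The aged sham libraries were nearly equal (coefficient of variation of 2.85%), and every aged bleo library was higher, aged bleo 4 and 5 only slightly. The log2 fold change was 0.57 ± 0.17 (FDR = 0.0311, 95% interval of 0.18 to 0.96), just under the fold change threshold. Without aged bleo 4 and 5 it was 0.78 (FDR = 0.000542) and past both thresholds. Polr2b, a protein-coding gene that overlaps Igfbp7, had a mean of 4776 reads in aged sham and 6368 reads in aged bleo.

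**Figure D3:**
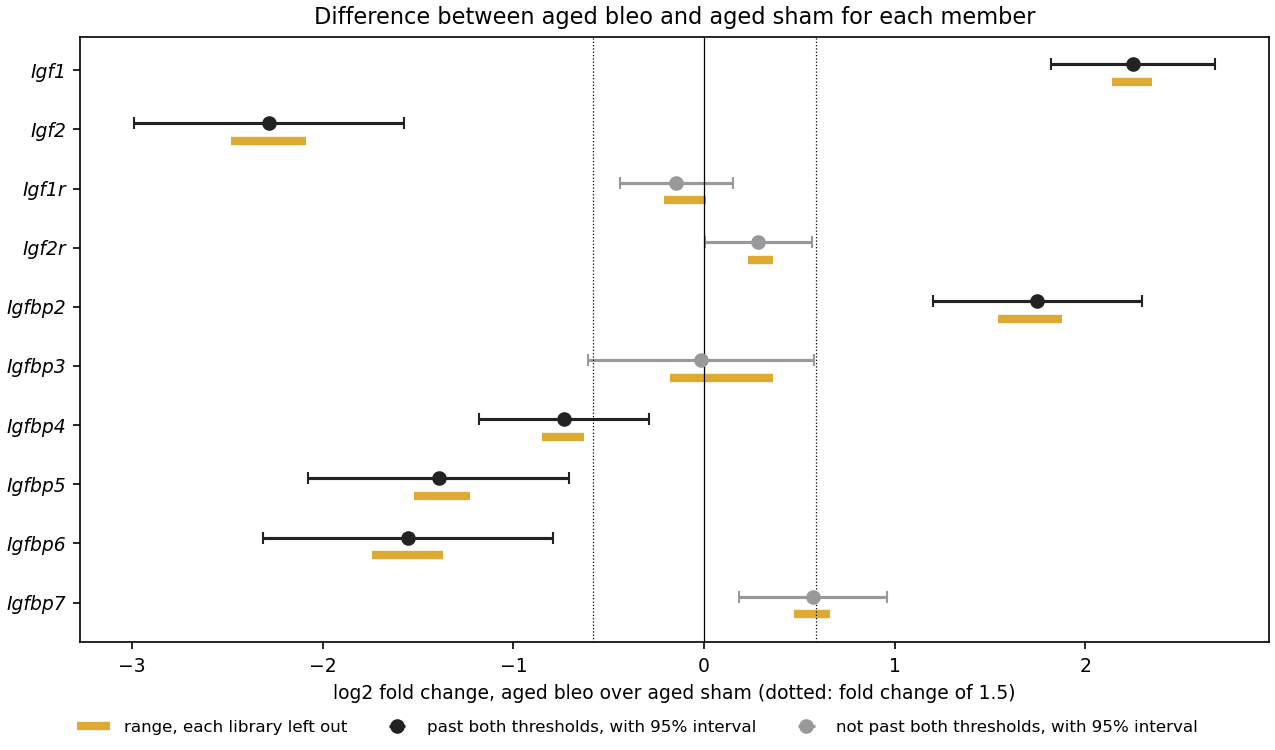
Log2 fold change of each member with its 95% interval (points and lines) and the range over the 9 fits that each leave out 1 library (gold bars), with dotted lines at a fold change of 1.5. The 6 called members lie past a dotted line in every one of these fits, while Igfbp7 lies across it.

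Ranked by FPKM, which divides by gene length, Igfbp7 (290.3 ± 4.93, SD, n = 4) and Igfbp4 (283 ± 17.6) led in aged sham and overlapped. Igfbp6 (206 ± 25.8) and Igfbp5 (203 ± 43.5) followed and also overlapped, and Igfbp3 (37.3 ± 18.5) came next, apart from its neighbors. The FPKM of Igf2r (10.9 ± 1.36), Igf1 (9.09 ± 1.37), and Igf2 (6.78 ± 0.840) overlapped from one to the next, and Igf1r (4.17 ± 0.851) and Igfbp2 (1.77 ± 0.106) closed the order. The binding proteins other than Igfbp2 were thus above the ligands and receptors in every aged sham library.

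In aged bleo, Igfbp7 (441 ± 97.8 FPKM, SD, n = 5) stood alone at the top and Igfbp4 (174 ± 45.4 FPKM) alone behind it. Igfbp5 (78.7 ± 28.7), Igfbp6 (71.5 ± 31.9), Igf1 (44.4 ± 9.40), and Igfbp3 (37.8 ± 4.32) overlapped from one to the next in FPKM. Igf1 had moved among the binding proteins. Igf2r (13.6 ± 1.498 FPKM) was apart from its neighbors, Igfbp2 (6.11 ± 2.20 FPKM) overlapped with Igf1r (3.86 ± 0.283 FPKM), and Igf2 (1.42 ± 0.574 FPKM) was lowest.

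The share of each gene in the summed IGFBP FPKM was also taken, without a test. Igfbp7 made up 28.5% ± 1.25 (SD, n = 4) of the sum in aged sham and 54.8% ± 2.27 (SD, n = 5) in aged bleo, with 51.1% to 56.95% in single aged bleo libraries. Igfbp4 made up 27.8% ± 1.82 and 21.4% ± 0.922, Igfbp5 19.8% ± 3.79 and 9.49% ± 1.66, and Igfbp6 20.2% ± 1.68 and 8.48% ± 2.31. These 3 shares were lower in every aged bleo library. Igfbp3 made up 3.64% ± 1.75 and 5.03% ± 1.83, with overlap, and Igfbp2 0.174% ± 0.0066 and 0.770% ± 0.261. The directions of the Igfbp4 and Igfbp5 shares depended on Igfbp7 being in the sum. Without Igfbp7, the Igfbp4 share was 38.8% ± 2.88 and 47.5% ± 2.60, higher in every aged bleo library, the Igfbp5 share was 27.7% ± 5.18 and 20.9% ± 3.00, with overlap, and the Igfbp6 share was 28.2% ± 2.10 and 18.6% ± 4.26, still lower without overlap. On CPM, which is not divided by length, the Igfbp7 share was 11.2% ± 0.658 and 27.2% ± 1.6, higher in every aged bleo library but not the largest, and the Igfbp4 share was 39.6% ± 3.57 and 38.7% ± 1.80, with overlap.

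**Figure D4:**
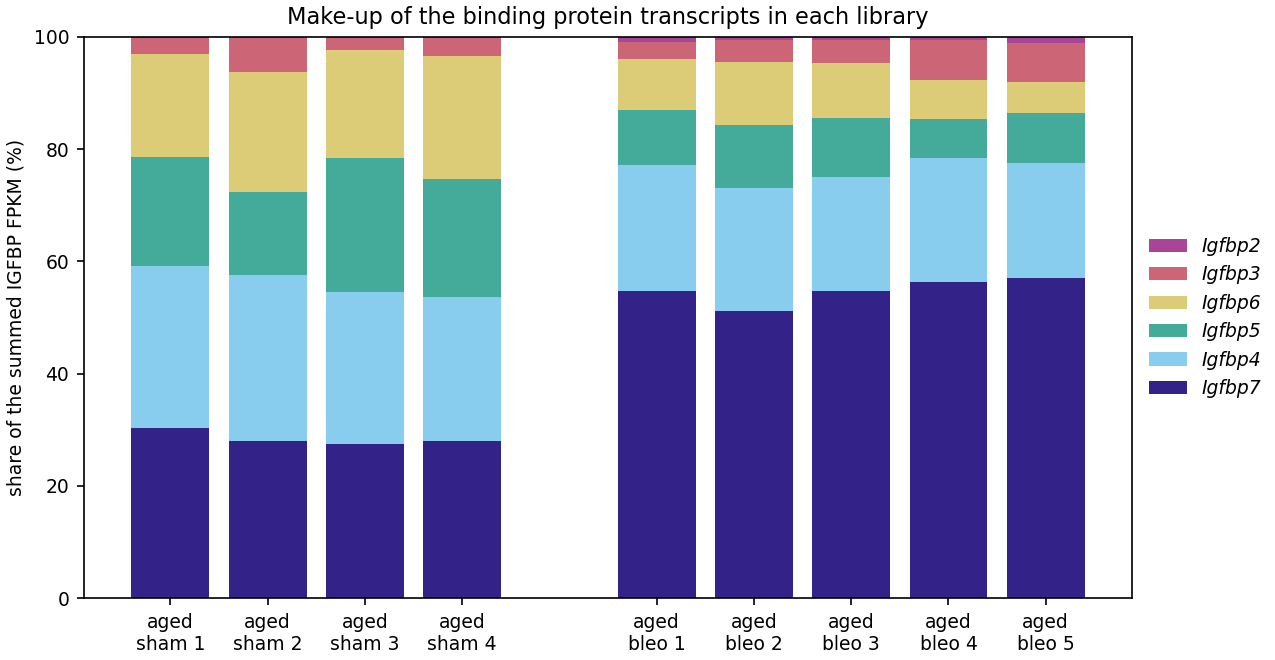
Share of each of the 6 IGFBPs in their summed FPKM (percent), stacked for each of the 4 aged sham and 5 aged bleo libraries. Igfbp7 takes 27.5% to 30.3% in aged sham and 51.1% to 56.95% in aged bleo.

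Summed over the 6 IGFBPs, the FPKM was 1022 ± 57.3 (SD, n = 4) in aged sham and 808.5 ± 196 (SD, n = 5) in aged bleo, and the groups overlapped. On CPM, where longer genes weigh more, the sum was 7555 ± 549 and 4629 ± 1247, with no overlap. Without Igfbp7 the FPKM sum was 731.6 ± 53.0 and 367.9 ± 100.3, with no overlap. For each 1000 units of summed IGFBP FPKM, Igf1 had 8.94 ± 1.65 units in aged sham and 58.4 ± 22.01 in aged bleo, and Igf2 had 6.65 ± 0.894 and 1.71 ± 0.461. The Igf1 ratio ranged from 6.86 to 10.8 in aged sham and from 33.3 to 90.9 in aged bleo, and the highest values were those of aged bleo 4 and 5. Transcript ratios give no measure of free ligand, since protein was not measured.

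Genes around the members were taken from 9 lists with 86 genes in all, of which 76 were tested. Of these, 15 were higher and 14 lower (38.2% called, beside 23.8% of all genes tested), and the median log2 fold change was 0.01. The shares called in single lists stand beside the same 23.8%, and the lists are small.

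Among 7 tested IGFBP proteases and protease inhibitors, 2 rose and 2 fell (57.1% called). Pappa, which encodes PAPP-A, rose from 21.5 ± 3.38 to 49.9 ± 20.99 CPM (log2 fold change of 1.22 ± 0.26, FDR = 0.00801). Both stanniocalcins, inhibitors of PAPP-A, fell, Stc1 by 0.72 ± 0.15 (FDR = 0.00808) and Stc2 by 0.79 ± 0.18 (FDR = 0.00893) on the log2 scale, and with limma on log2(FPKM + 1), which shrinks the changes of low genes, neither reached a fold change of 1.5 (-0.48 and -0.51). Pappa and the stanniocalcins changed in opposite directions, and each group pair was free of overlap. Of all genes tested, 32.2% had groups without overlap. Adam12, a metalloprotease reported to cut IGFBPs, rose from 6.66 ± 8.32 to 66.6 ± 36.9 CPM (log2 fold change of 3.31 ± 0.82, FDR = 0.0143), with 1 aged sham library, aged sham 1, at 19.03 CPM. Without that library the log2 fold change of Adam12 was 4.72, and without aged bleo 4 and 5 it was 2.66.

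Of 11 other tested genes with an IGFBP domain, 1 rose and 6 fell (63.6% called, median log2 fold change of -0.79). Ccn4, a matricellular gene listed under its older name Wisp1, rose from 14.6 ± 1.89 to 123 ± 55.9 CPM (log2 fold change of 3.08 ± 0.33, FDR = 0.000271). Its relative Ccn3, listed as Nov, fell from 212 ± 28.3 to 93.1 ± 41.6 CPM (FDR = 0.0204), and the protease gene Htra4 fell from 73.3 ± 13.2 to 23.1 ± 12.9 CPM (FDR = 0.013). Among the RNA-binding proteins named for Igf2 mRNA, Igf2bp2 rose from 8.19 ± 0.334 to 16.8 ± 5.37 CPM (FDR = 0.00668) and Igf2bp3 fell from 2.42 ± 0.213 to 1.13 ± 0.178 CPM (FDR = 0.0014). Igf2bp1 was not tested, so that with H19 all 3 tested genes of this list were called.

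Below the receptor, 3 of 12 tested substrates and adaptors rose and 1 fell (33.3% called). Grb10 and Grb14, adaptors known to restrain insulin and IGF1 receptors, rose, by log2 fold changes of 0.92 ± 0.14 (FDR = 0.00194) and 1.48 ± 0.24 (FDR = 0.0022). Of the main docking proteins, Irs2 fell from 119 ± 27.8 to 64.5 ± 21.9 CPM (FDR = 0.0261), with overlap of the groups, and Irs1 was at 71.8 ± 8.83 and 66.2 ± 3.16 CPM (FDR = 0.327). The insulin receptor gene Insr was at 75.9 ± 4.04 and 59.1 ± 8.89 CPM, a log2 fold change of -0.36 ± 0.11 (FDR = 0.0332) that did not reach the fold change threshold although the groups did not overlap. It was the only tested gene of 6 in the list of other insulin-family genes and carriers. Igfals, the partner of IGFBP3 in blood, was at 0.374 ± 0.0782 and 0.195 ± 0.115 CPM and was not tested, and neither was Igfbp1, with no read in aged sham, where 3 reads would be 0.0484 to 0.0604 CPM.

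In the PI3K, AKT, and TOR list, 4 of 23 genes rose and 1 fell, 21.7% called and close to the share of all genes. Pik3r3, a regulatory subunit of PI3K, rose from 5.34 ± 0.290 to 19.4 ± 3.31 CPM (FDR = 3.72e-05). Foxo1, a transcription factor that AKT holds out of the nucleus, fell from 116.5 ± 12.5 to 56.1 ± 17.6 CPM (FDR = 0.00618). Of 12 FoxO target genes, 1 rose and 4 fell (41.7% called). Those that fell included Klf15 (23.7 ± 4.33 to 11.0 ± 5.73 CPM, FDR = 0.0406), Txnip (519 ± 133 to 271 ± 53.9 CPM, FDR = 0.0063), and Pdk4 (28.1 ± 8.96 to 15.1 ± 3.37 CPM, FDR = 0.0147).

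Growth hormone is the main driver of Igf1 transcription in the liver. Of 6 tested genes of its axis, 2 rose (33.3% called, beside 23.8% of all genes tested). Socs2, a feedback inhibitor of the growth hormone receptor, rose from 31.9 ± 2.02 to 65.95 ± 6.75 CPM (log2 fold change of 1.05 ± 0.09, FDR = 6.81e-05). Jak2, its kinase, rose from 72.0 ± 21.98 to 112 ± 16.3 CPM (FDR = 0.0275), with overlap, and the call was lost when aged sham 2, aged sham 4, or aged bleo 3 was left out (log2 fold changes of 0.54, 0.58, and 0.58). The receptor gene Ghr was at 120.2 ± 5.21 and 145 ± 27.3 CPM (FDR = 0.155). None of the 4 genes of mannose 6-phosphate sorting, the other task of IGF2R, was called by edgeR.

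**Figure D5:**
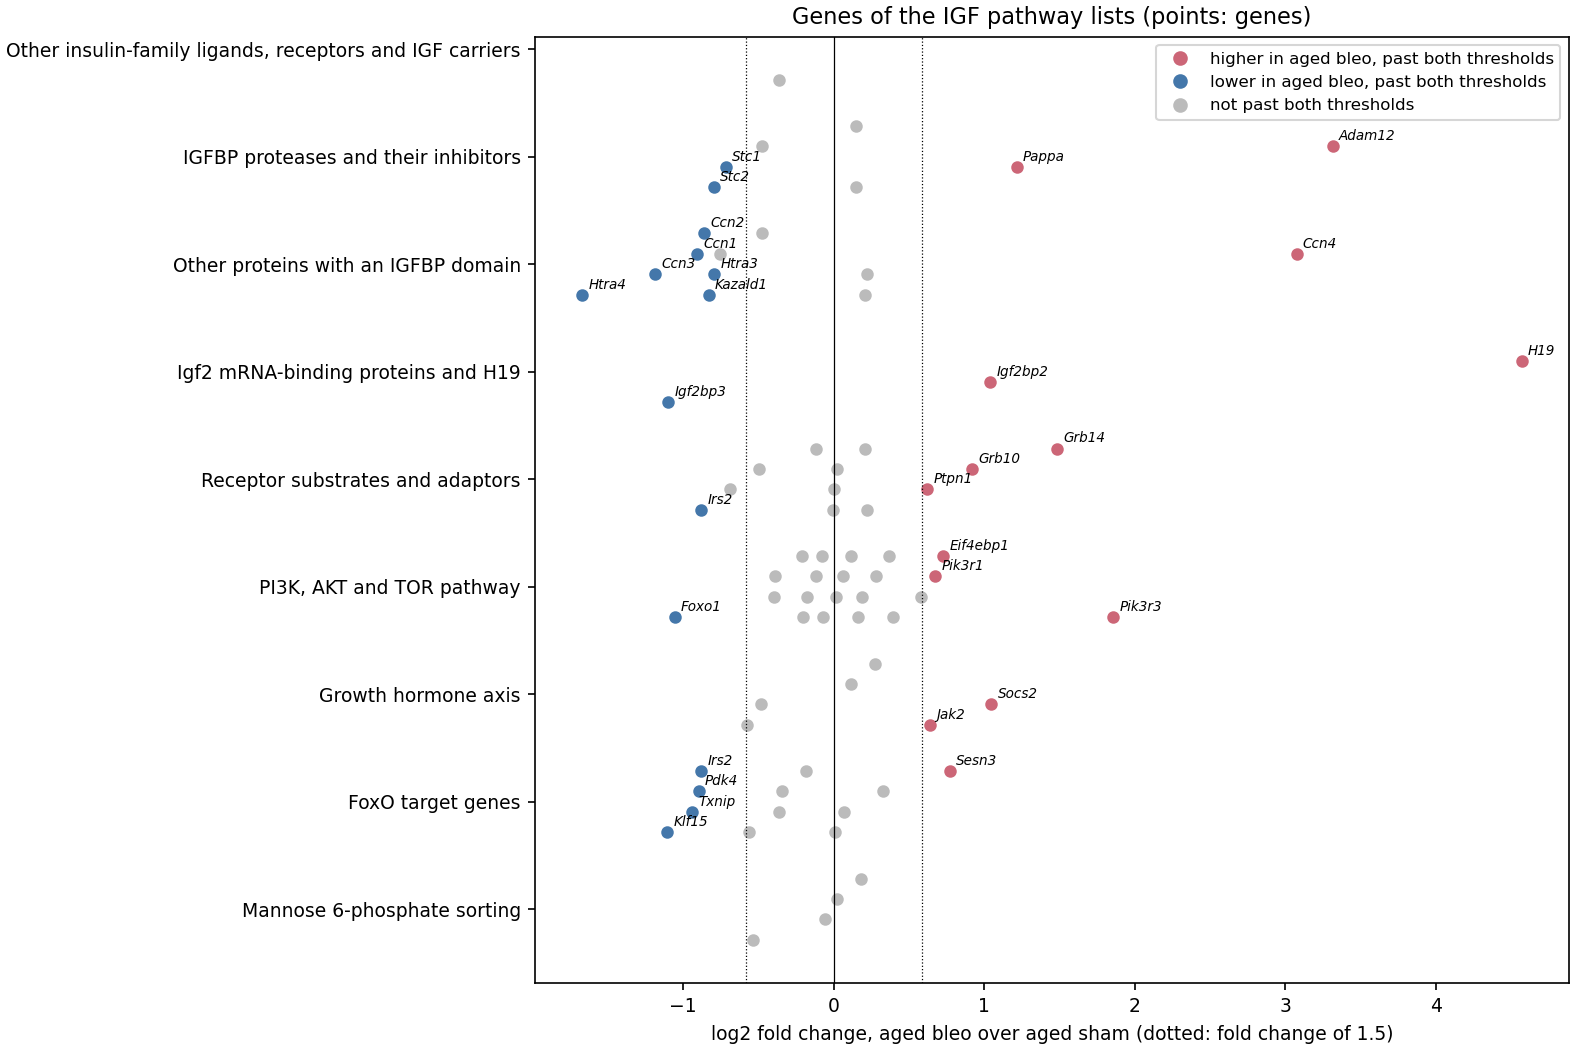
Log2 fold change of tested genes of the 9 pathway lists, 1 point per gene, with dotted lines at a fold change of 1.5 and genes past both thresholds named. Points to the right are higher and points to the left lower in aged bleo, and H19, Adam12, and Ccn4 lie farthest to the right.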

How the data were processed

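The 9 RNA-Seq libraries, 4 of aged sham and 5 of aged bleo, were grouped by the treatment in their labels. The kit (TruSeq RNA Sample Prep Kit v2) does not mark strand. The submitters' processing notes name bcl2fastq, STAR 2.5.2b, Subread, and featureCounts, and the annotation and strand setting are not given in the sources used here. The authors deposited raw read counts per gene, and FPKM values that they scaled to gene length and to a total of 2.27 to 2.42 times the sum of the counts. Coordinates are on GRCm38 as deposited, and 78.9% of the identifiers shared with GENCODE M21 have its start and end.

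Counts of the 16877 genes with an average of at least 25 reads were normalized by TMM and tested with the edgeR 4.0.16 quasi-likelihood test in R 4.3.3, with no covariate. FDR is the Benjamini-Hochberg adjusted p-value over all these genes. SEs and 95% intervals were derived from the same fit. FPKM ratios and shares were not tested, and overlap means that the ranges of the groups meet. The alternatives were DESeq2 1.42.0, limma 3.58.1 on log2 CPM and on log2(FPKM + 0.1) and log2(FPKM + 1), other scalings, filters, and thresholds, a robust fit, left-out libraries, a replicate block, and the number that ends the library name as a term. The test was first run on simulated data.

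Besides the members, the named genes are, in each pathway list, up to 3 called genes with the largest change and a mean of at least 1 CPM, genes of set interest (Igfbp1, Igfals, Insr, Irs1, Irs2, Pappa, Stc1, Stc2, Ghr, and H19), marker genes, and the 3 genes most like each member. Some genes that this rule covers are counted in their lists but not reported here by name. Polr2b and Airn are named for their overlap with members. The members and lists were chosen with earlier results of these data known, and lists were described by counts only. Limits from counts cover counting error only. Young mice were not analysed here.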

Additional observations from a re-analysis of the deposited data

Results flagged for a closer look

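Each member's CPM was screened for a library far from the rest of its group in both groups, 20 groups in all, and 1 was found, where chance gives about 1 in 20. Igf1r in aged sham 1 was at 58.4 CPM, and the nearest of the other aged sham libraries was at 41.5 CPM, a gap of 0.873 of the range of the group.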

How the results depend on the processing

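Igf1 and Igfbp2 stayed higher and Igf2, Igfbp5, and Igfbp6 lower, past both thresholds, in all 13 alternative settings and all 9 fits with a library left out. Igfbp4 lost its call under the stricter thresholds (FDR under 0.05 and fold change over 2, log2 fold change of -0.73) and without aged bleo 4 and 5 (-0.49). Igfbp7 was called with no filter (0.59), with the replicate block (0.62), without aged bleo 4 and 5 (0.78), and in 3 of the 9 fits with a library left out (0.59, 0.66, and 0.65).

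The sign of Igfbp3 turned with limma on log2 CPM (0.0911), log2(FPKM + 0.1) (0.13), and log2(FPKM + 1) (0.12), with no filter (0.0023), with the replicate block (0.0548), and with the library name ending as a term (0.067). It ranged from -0.18 to 0.36 with a library left out, and Igf1r from -0.21 to 0.0091. The library name ending, whose meaning is not stated, is 4 in all aged sham libraries and in aged bleo 4 alone of aged bleo, so that this fit compares aged bleo 4 with aged sham. It gave 3153 genes higher and 3241 lower over all genes and 26 pathway genes lower, and log2 fold changes of -0.0189 for Igf2r, -0.25 for Ghr, 1.02 for Igfbp2, -3.59 for Igf2, and 0.11 for Igfbp7. Over all genes, limma on log2(FPKM + 1) gave 960 higher and 825 lower, and the stricter thresholds 1224 and 934, with 9 pathway genes higher and 5 lower. Igf1 per 1000 IGFBPs was 28.5 in aged sham and 237 in aged bleo on CPM, and 12.5 and 131 without Igfbp7. Of the pathway genes named, Stc1, Stc2, Igf2bp2 (0.43), Igf2bp3 (-0.15), and Grb14 (0.49) lost their call with limma on log2(FPKM + 1), Stc1, Stc2, Grb10, Irs2, Jak2, Txnip, and Pdk4 under the stricter thresholds, and Jak2 with the library name ending as a term, where Insr gained one (-0.74). The causes were not tested.

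Whether replicate numbers pair the samples cannot be told. Correlations of deviations between libraries with the same number were 0.092, 0.062, -0.13, and 0.326, and libraries with different numbers were not compared. The replicate block called 3 members higher and 4 lower. With at least 386 reads per library, depth did not limit the members.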

Other observations

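The sums of the other marker lists of the sort moved in different directions. The called genes counted in each list stand beside 12.3% of all genes tested called higher and 11.5% called lower, and the lists are small. The summed alveolar fibroblast markers were 2337 to 3784 CPM in aged sham and 859 to 2456 CPM in aged bleo, with 2 of 8 genes higher and 3 lower. Smooth muscle and pericyte markers summed to 3074 to 6273 CPM and 2393 to 3575 CPM, with 1 of 8 higher and 2 lower. Fibroblast identity genes, which include collagen I and III, summed to 24780 to 30540 CPM and 54950 to 72370 CPM, with 4 of 8 higher and 1 lower. Endothelial markers summed to 164 to 202 CPM and 26.7 to 71.35 CPM, with 1 of 6 tested genes higher and 1 lower. Tek fell from 161 ± 12.9 to 28.8 ± 18.8 CPM, Kdr rose from 3.25 ± 0.556 to 4.97 ± 1.22 CPM with overlap, and Cdh5 was at 1.67 ± 0.653 and 1.64 ± 0.416 CPM. Pan-leukocyte, epithelial, and mesothelial markers summed to 94.5 to 339.9, 10.1 to 81.2, and 27.6 to 79.3 CPM in aged sham and 93.7 to 526, 16.8 to 53.3, and 32.5 to 117.7 CPM in aged bleo.

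After the group means were taken out, 4 binding proteins that differ in direction between the groups deviated together over the 9 libraries. Pearson's r was 0.958 between Igfbp4 and Igfbp7, 0.938 between Igfbp4 and Igfbp6, 0.912 between Igfbp6 and Igfbp7, and 0.836 between Igfbp5 and Igfbp6. The ligand Igf2 deviated with them as well, with an r of 0.834 with Igfbp4, 0.795 with Igfbp5, 0.791 with Igfbp6, and 0.827 with Igfbp7. Igfbp7 was highest in aged bleo 1 to 3, in which Igfbp4 and Igfbp6 were least reduced, although it was higher and they were lower than in aged sham. These libraries share their normalization, aged bleo 4 and 5 carry much of the spread, and no p is given.

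Of 10010 candidate genes with a mean of at least 10 CPM, those most like each member within the groups were Zdhhc3, Coa5, and Ddx19b for Igf1, Fbln5, Angpt1, and Ctso for Igf2, Birc2, Vash1, and Rapgef2 for Igf1r, and Otud7b, Polr3a, and Syne2 for Igf2r. For the binding proteins they were A430105I19Rik, Rcan3, and 2610008E11Rik (Igfbp2), Emc4, Rab15, and Gprc5a (Igfbp3), Npdc1, D330041H03Rik, and Zdhhc1 (Igfbp4), Endov, Clip4, and Gli1 (Igfbp5), Sirt2, Htra1, and Clec3b (Igfbp6), and Eng, Ltbp3, and Elmo2 (Igfbp7). The best match had an r of 0.895 for Igfbp3 and between 0.95 and 0.993 for the other members, over 9 libraries. Clec3b, an adventitial fibroblast marker, had an r of 0.992 with Igfbp6.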
